A study of Mus musculus with 8 samples.

Results

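The genes described here are 10 known direct targets and feedback genes of bone morphogenetic protein (BMP) signalling, namely Id1, Id2, Id3, Id4, Smad6, Smad7, Smad9, Atoh8, Bambi and Tmem100. They were named in advance as a list, with earlier results of these data known, and are 10 of the 56748 genes in the deposited count table. The data are bulk RNA-seq counts from sorted tdTomato-positive cells of mouse lower molars at postnatal day 10, where the labelled cell type is the CXCL12-expressing apical papilla cell, from soft tissue below the forming root. The labels also name the tissue dental pulp and the dissociated cells dental follicle, so the compartment is not settled by them. The groups are 4 libraries labelled cKO, with genotype Ctnnb1(-/-), and 4 labelled cHet, with genotype Ctnnb1(+/-), where Ctnnb1 encodes beta-catenin. Every animal, control or mutant, had a tamoxifen pulse at day 3 and carried the tdTomato reporter, so by their labels the controls are heterozygous as well, and no group has both copies in the targeted cells. The Cre driver, the deleted exons, the sex of the animals and whether a library pools animals are not stated in those labels. The p-values therefore measure the spread between libraries, which may be technical.

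BMP ligands bind paired type I and type II serine-threonine kinase receptors, which phosphorylate Smad1, Smad5 and Smad9. These join Smad4, enter the nucleus and bind GC-rich elements and Smad boxes near their targets. The Id genes are among the fastest targets, and Smad6, Smad7 and Bambi are feedback inhibitors. In tooth development BMPs carry signals between epithelium and dental mesenchyme and take part in odontoblast differentiation and root formation.

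Libraries held between 44444033 and 50051392 counts. Levels are given in CPM, counts scaled to library depth with trimmed-mean (TMM) factors, and changes are log2 fold changes of cKO over cHet from edgeR, called where the p adjusted over 21508 tested genes was under 0.05. Ctnnb1 lay between 229 and 313 CPM in cKO and between 209 and 304 CPM in cHet, and a count over the whole gene cannot check a deletion of some exons. Markers went partly against the label of the cells. Omp, the marker of mature olfactory sensory neurons, stood at 1927 to 2219 CPM in cKO and 1739 to 3940 CPM in cHet, while the label's own gene Cxcl12 stood at 491 to 1001 CPM and 66.4 to 268 CPM. The libraries are therefore called by their labels, and no single cell type is assumed.

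In cKO libraries 5 of the 10 genes rose and none fell. Id2, Smad6, Smad9, Atoh8 and Tmem100 were called higher, against a background of 1.08% of all tested genes called higher and 0.0558% called lower. At an unadjusted p under 0.05, 8 members were higher and 0 lower, where 10.8% of tested genes were higher and 1361 of 21508 lower. DESeq2 and limma voom also called 0 members lower, where they called 2.52% and 1.26% of their genes lower. In 8 of the 10 every cKO library lay above every cHet library, a pattern seen in 6.46% of tested genes, while in 3.68% every cKO library lay below. Id4 and Bambi were the exceptions, with groups that overlapped. The median log2 change of the 10 was 1.84, and that of all tested genes was -0.03. All 10 passed the filter on low counts. In bulk samples, fewer cells of a type and less RNA per cell cannot be told apart.

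The number of calls rested on single libraries. Leaving out cKO9 gave 7 members called higher (Id1 and Id3 in addition), where 3.67% of all genes were. Leaving out cHet8 gave 2, Smad6 and Tmem100, where 0.698% of all genes were called higher. Leaving out any of cKO7, cKO14, cKO15, cHet11, cHet12 or cHet14 gave 0 calls by edgeR, with 8 members higher at an unadjusted p under 0.05 in each of these fits. The share of all genes higher at that p was 9.05% without cKO7, 8.14% without cKO14, 7.75% without cKO15, 8.15% without cHet11, 10.1% without cHet12 and 8.21% without cHet14, beside 12.4% without cKO9 and 10.8% without cHet8. Few genes of any kind were called higher there: 0.0357% without cKO7 and also without cKO15, 0.0181% without cHet11, and none without cKO14, cHet12 or cHet14. Without both cHet11 and cKO9, a fit chosen after seeing the data, 7 members were called, where 2.84% of all genes were. DESeq2 and limma voom each called 8 of the 10 higher, where they called 6.24% and 5.96% of all genes higher.

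**Figure D1:**
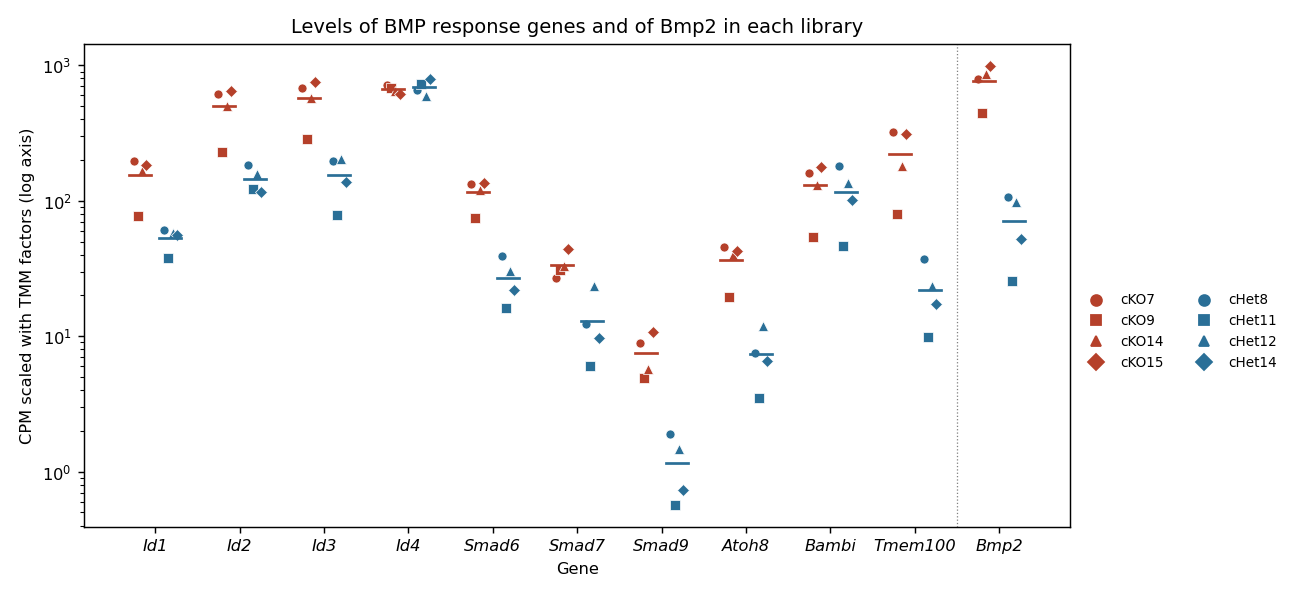
CPM of each gene (log axis) in the 4 cKO libraries (red, left of each pair) and the 4 cHet libraries (blue, right), with 1 marker shape per library and a line at the group mean; Bmp2 is at the far right. The groups are apart for every gene except Id4 and Bambi, and cKO9 and cHet11 (squares) are the lowest library of their group for 8 genes each.

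The Id genes encode helix-loop-helix proteins without a DNA-binding region, which bind E proteins and so keep tissue-specific bHLH factors from DNA. Id1 (ENSMUSG00000042745.10) stood at 198, 76.8, 166 and 183 CPM in cKO7, cKO9, cKO14 and cKO15, against 61.0, 37.8, 58.1 and 55.7 CPM in cHet8, cHet11, cHet12 and cHet14. The groups did not overlap, with cKO9 nearest to the cHet libraries, and the log2 change of 1.55 (SE 0.29) narrowly missed the threshold (adjusted p = 0.0526). Id2 (ENSMUSG00000020644.10) stood at 614, 228, 503 and 649 CPM in the same order of cKO libraries, against 183, 122, 157 and 116 CPM in the cHet libraries. Again cKO9 was the lowest cKO library, and Id2 rose 3.44-fold in mean (log2 1.78, SE 0.32, adjusted p = 0.0471).

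Id3 (ENSMUSG00000007872.4) stood at 676, 287, 570 and 753 CPM in cKO, against 196, 78.4, 202 and 138 CPM in cHet, again in library order. Its groups were apart too, but the log2 change of 1.9 (SE 0.37) did not pass (adjusted p = 0.0579). Id4 (ENSMUSG00000021379.3) stood at 715, 686, 641 and 616 CPM in cKO, against 658, 722, 594 and 786 CPM in cHet, and the libraries of both groups were interleaved (log2 -0.05, SE 0.11, adjusted p = 0.862). The sign of this value turned with the mesenchyme score as a covariate (0.10), the olfactory score (0.11) or Bmp2 (0.36). Id4 is known from neural and epithelial cells besides mesenchyme, and its exons overlap 2 antisense noncoding genes by 82 and 171 bases, whose summed counts (274 and 2086) were small beside those of Id4 (255023).

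Within each library the family was therefore made up differently in the groups, a comparison that needs no scaling between libraries. Per length of exon, Id3 stood at 203, 89.9, 191 and 263% of the Id4 level in cKO, against 64.1, 23.4, 73.1 and 37.7% in cHet. Id3 thus exceeded Id4 in 3 of the 4 cKO libraries and in no cHet library. Id1 ranged from 37.2 to 98.4% of Id4 in cKO, against 17.4 to 32.5% in cHet, and Id2 from 52.5 to 166%, against 23.4 to 43.96%. These ratios show an unequal change and were given no test of their own. Because Id4 changed little, they repeat the group differences of Id1, Id2 and Id3 and are not a separate result. The share of all genes whose ratio to Id4 sets the groups apart was not counted.

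On the same scale per length (CPM per kilobase of exon), the mean level in cKO was, in descending order, that of Id3 (319), Id2 (204.5), Id4 (173), Id1 (134), Tmem100 (126), Smad6 (36.2), Bambi (25.7), Atoh8 (14.7), Smad7 (7.41) and Smad9 (1.41). In cHet the order of mean levels per length was Id4 (179), Id3 (85.8), Id2 (59.4), Id1 (45.8), Bambi (22.9), Tmem100 (12.4), Smad6 (8.36), Atoh8 (2.94), Smad7 (2.85) and Smad9 (0.217). In cKO the ranges of neighbours overlapped except between Tmem100 and Smad6 and between Smad7 and Smad9. In cHet they did not overlap between Id4 and Id3, between Smad6 and Atoh8, or between Smad7 and Smad9; Id1 and Bambi overlapped only slightly.

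The stretch of 250 bases before to 50 bases after the start of transcription was searched for 6 of the 10 genes, from RefSeq on the mouse build GRCm38.p6. Id1, Smad7, Bambi and Tmem100 were not searched. The windows of 3 Id genes and of Smad6 are shown because Id2 and Id4 carry the same pair of Smad element cores and yet differ in their change, while Id3 and Smad6 are each other's nearest profile among the 10 genes. Capitals mark GGCGCC and GGAGCC, cores of the response elements of the BMP Smads, and GTCTG, the Smad box, on either strand. The windows are chr12:25096043-25096342 (minus strand) for Id2, chr4:136143572-136143871 (plus) for Id3, chr13:48260866-48261165 (plus) for Id4 and chr9:64022010-64022309 (minus) for Smad6, each printed 5' to 3' along the gene.
Id2: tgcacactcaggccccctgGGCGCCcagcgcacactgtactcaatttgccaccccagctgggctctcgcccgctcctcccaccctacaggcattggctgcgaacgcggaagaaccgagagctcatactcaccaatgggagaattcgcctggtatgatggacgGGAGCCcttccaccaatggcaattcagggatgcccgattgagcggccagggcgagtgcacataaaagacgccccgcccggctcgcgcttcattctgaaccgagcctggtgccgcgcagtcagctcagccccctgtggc
Id3: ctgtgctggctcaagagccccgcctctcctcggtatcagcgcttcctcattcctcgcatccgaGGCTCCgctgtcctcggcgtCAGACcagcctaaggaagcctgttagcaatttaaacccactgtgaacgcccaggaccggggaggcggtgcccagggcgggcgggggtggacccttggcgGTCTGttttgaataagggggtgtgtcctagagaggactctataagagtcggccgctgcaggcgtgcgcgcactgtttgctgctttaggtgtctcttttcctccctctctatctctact
Id4: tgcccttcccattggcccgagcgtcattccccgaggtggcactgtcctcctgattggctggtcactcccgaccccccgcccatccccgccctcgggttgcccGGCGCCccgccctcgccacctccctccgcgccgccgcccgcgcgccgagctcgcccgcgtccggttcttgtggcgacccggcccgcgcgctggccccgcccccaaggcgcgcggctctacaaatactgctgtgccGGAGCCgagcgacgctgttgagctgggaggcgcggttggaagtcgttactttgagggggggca
Smad6: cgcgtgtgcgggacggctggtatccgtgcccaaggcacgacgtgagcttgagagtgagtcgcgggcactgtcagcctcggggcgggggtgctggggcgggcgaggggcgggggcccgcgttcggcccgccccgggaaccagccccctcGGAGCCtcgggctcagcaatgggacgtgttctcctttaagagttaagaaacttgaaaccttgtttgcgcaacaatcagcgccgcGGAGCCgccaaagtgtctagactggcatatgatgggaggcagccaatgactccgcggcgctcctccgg
Id2 and Id4 each held 1 GGCGCC and 1 GGAGCC. Id3 held 1 GGAGCC and 2 GTCTG, and Smad6 held 2 GGAGCC. The other 2 windows, not printed, were those of Smad9, with 1 GGCGCC and 2 GGAGCC, and of Atoh8, with none of the 3 motifs. Of 32851 windows of the same length over all genes, 11.9% held GGCGCC, 30.8% held GGAGCC and 49.6% held GTCTG. The 6 windows of the members had a GC content of 60 to 73.7%, against a median of 52.7% over all windows, and the shares were not matched for it. The E box CANNTG, the site of bHLH factors, was found once in Id2, Smad6 and Smad9, at 2 places in Atoh8 and in 72.3% of all windows. No match overlapped another. A match is a description of letters and not a binding site, and the window misses distant enhancers.

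The inhibitory Smads bind activated receptors or Smads and damp the signal. Smad6 (ENSMUSG00000036867.8), which acts mainly on the BMP branch, stood at 134, 75.2, 120 and 136 CPM in cKO7, cKO9, cKO14 and cKO15, against 39.1, 16.3, 30.1 and 21.8 CPM in cHet8, cHet11, cHet12 and cHet14. The lowest cKO library lay well above the highest cHet library. Smad6 rose 4.33-fold in mean (log2 2.11, SE 0.30) and passed the test (adjusted p = 0.0337, the lowest among the members). Smad7 (ENSMUSG00000025880.12), which damps both the BMP and the TGF-beta branch, stood at 26.8, 30.7, 32.8 and 43.7 CPM in cKO, against 12.3, 5.99, 23.6 and 9.65 CPM in cHet. cHet12 came close to cKO7, and the log2 value of 1.38 (SE 0.40) did not pass in edgeR (adjusted p = 0.139), whereas it passed in DESeq2 (adjusted p = 0.0153) and in limma voom (adjusted p = 0.0217).

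Smad9 (ENSMUSG00000027796.3) encodes the receptor-activated Smad also called Smad8, which is itself induced by BMP and is a weaker activator than Smad1 or Smad5. It was the scarcest member, with 8.96, 4.90, 5.76 and 10.7 CPM in cKO, against 1.89, 0.569, 1.47 and 0.734 CPM in cHet, where 30 to 98 reads stood behind each value. The groups were apart, and Smad9 rose 6.51-fold in mean (log2 2.7, SE 0.49, adjusted p = 0.0473). In edgeR this call ended without a filter on low counts (adjusted p = 0.0519), where 0.586% of all genes were called higher, and with DESeq2-type size factors (adjusted p = 0.0520), where 0.832% were. The call of Id2 also ended with those factors (adjusted p = 0.0520).

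Bambi (ENSMUSG00000024232.3) encodes a receptor-like protein without a kinase, which blocks type I receptors. It is known to respond both to BMP and to beta-catenin. Bambi stood at 160, 54.1, 131 and 176 CPM in cKO, against 180, 46.5, 136 and 102 CPM in cHet. The groups overlapped over most of their range, and the log2 value was 0.17 (SE 0.45, adjusted p = 0.899). Its direction turned with mesenchyme scaling (-0.95), with the mesenchyme score (-1.14), the olfactory score (-0.58) or Bmp2 (-3.37) as covariate, and without cHet11 (-0.10) or cKO15 (-0.01).

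The other targets encode a transcription factor and a membrane protein. Atoh8 (ENSMUSG00000037621.9), a bHLH factor that BMP signalling induces in endothelial cells and hepatocytes, stood at 45.6, 19.6, 39.5 and 42.6 CPM in cKO, against 7.496, 3.53, 11.96 and 6.54 CPM in cHet. Every cKO library lay above every cHet library, and Atoh8 rose 4.99-fold in mean (log2 2.32, SE 0.41, adjusted p = 0.0448). Tmem100 (ENSMUSG00000069763.4), a membrane protein known as a target of BMP9 and BMP10 in endothelium, stood at 321, 80.1, 181 and 311 CPM in cKO, against 37.2, 9.81, 23.3 and 17.1 CPM in cHet. The lowest value in cKO was again that of cKO9. Tmem100 had the largest change of the 10, 10.2-fold in mean (log2 3.35, SE 0.55, adjusted p = 0.0385).

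Smad6, Atoh8, Tmem100 and Id1 are all known from endothelium, so its markers were set beside them. Cdh5, the defining cadherin of endothelial cells, lay between 0.423 and 0.604 CPM in cKO and between 0.255 and 0.540 CPM in cHet, near the floor of detection. The 10 endothelial markers summed to 17.2 to 49.1 CPM in cKO and 25.9 to 52.8 CPM in cHet. Tek, Emcn and Flt1 were at 0 in cKO15 alone. None of the 10 markers was called by edgeR, and 2 were lower at an unadjusted p under 0.05, as were 1361 of 21508 tested genes. Gdf2 and Bmp10, which encode the endothelial ligands BMP9 and BMP10, had no reads in any library. The receptor genes Acvrl1 and Eng were looked up after their values were seen. Acvrl1 stood at 12.7 to 42.5 CPM in cKO and 2.73 to 19.8 CPM in cHet (log2 1.55, SE 0.61, adjusted p = 0.249). Eng stood at 23.4 to 30.7 CPM and 4.97 to 17.4 CPM (log2 1.5, SE 0.37, adjusted p = 0.0977), with groups apart. Neither was called by edgeR, and an endothelial part in the changes was not tested.

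Bmp2 was the ligand that changed most, and each member was set against it library by library. Bmp2 (ENSMUSG00000027358.7) stood at 798, 442, 857 and 990 CPM in cKO7, cKO9, cKO14 and cKO15, against 106, 25.6, 98.1 and 52.0 CPM in cHet8, cHet11, cHet12 and cHet14. The groups form separate clusters on this axis, so no correlation over all 8 libraries is given, and groups of 4 are too small for one of their own. In each group the library lowest in Bmp2, cKO9 and cHet11, was also the lowest for 8 of the 10 genes, and for 7 of them in both groups. Among all tested genes 29.8% were lowest in cKO9 within cKO, 25.3% in cHet11 within cHet and 14.4% in both. The exceptions were Id4 in both groups, Smad7 in cKO and Id2 in cHet.

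**Figure D2:**
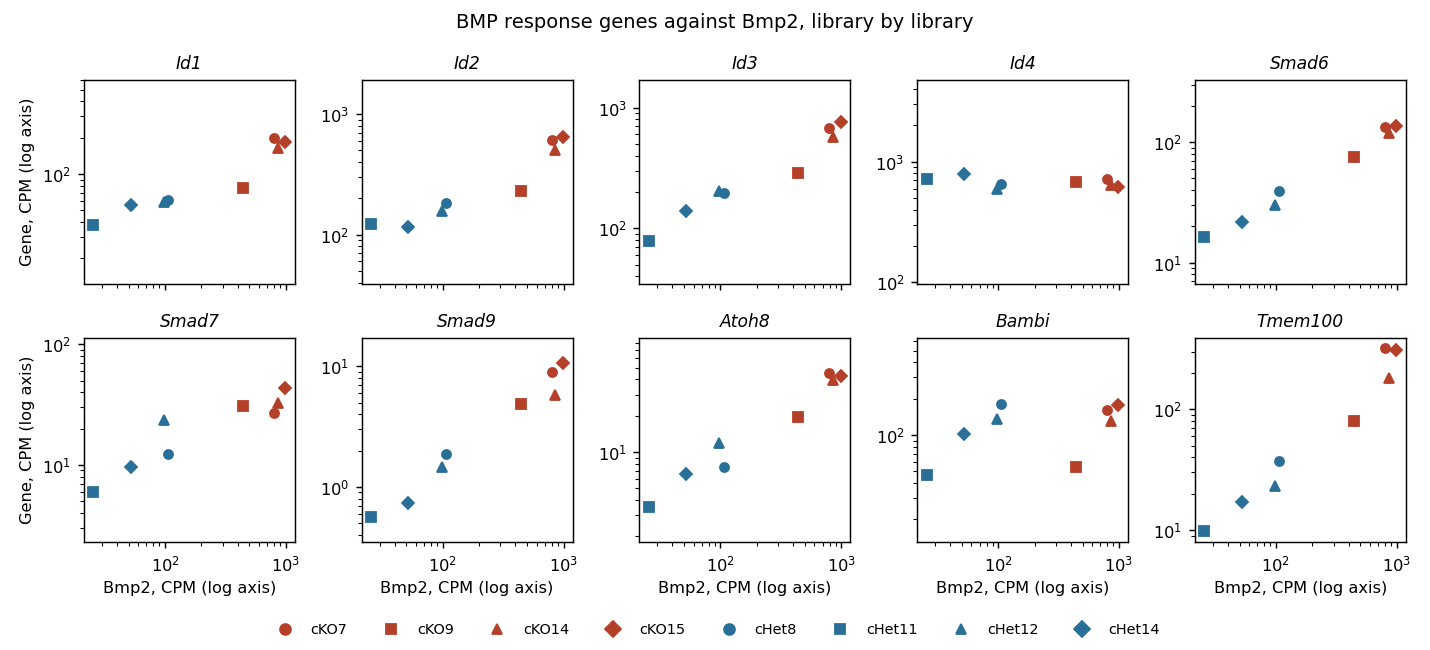
CPM of each gene (y, log axis, the same number of log units in every panel) against CPM of Bmp2 (x, log axis) in the 4 cKO (red) and 4 cHet (blue) libraries. Id4 is flat between 594 and 786 CPM. Bambi has a positive slope on Bmp2 within groups but a similar range in both. The other 8 genes are higher in every cKO library than in any cHet library. Inside a group their order does not always follow Bmp2, with Smad7 lowest in cKO7 and Id2 lowest in cHet14.

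A fit over all genes with genotype and the log2 level of Bmp2, centred within each group, measured the change with Bmp2 among libraries of the same genotype. Of the 10 genes, 3 had a slope that passed after adjustment, all positive, against 1.21% of all tested genes with a positive and 0.0093% with a negative call. These were Bambi with 0.99 log2 units per doubling of Bmp2 (SE 0.15, adjusted p = 0.0323), Smad6 with 0.60 (SE 0.09, adjusted p = 0.0331) and Id3 with 0.77 (SE 0.12, adjusted p = 0.0340). Tmem100 (0.99, SE 0.22, adjusted p = 0.0957) and Atoh8 (0.78, SE 0.17, adjusted p = 0.0871) did not pass, and the slope of Id4 was -0.12 (SE 0.08, adjusted p = 0.577). The median slope was 0.72 for the 10 genes and -0.01 for all genes tested. Leaving out any one of cKO7, cKO9, cKO14, cKO15, cHet8, cHet11 or cHet14 gave 0 calls among the 10 in edgeR, with 7 to 9 at an unadjusted p under 0.05. Of all genes, 8.93% without cKO9, 10.9% without cHet8, 11% without cKO15, 11.5% without cKO14, 11.6% without cHet11, 11.8% without cHet14 and 13.8% without cKO7 had a slope in either direction at that p. In these fits at most 0.246% of all genes had a positive call (0.246% without cKO7, 0.0715% without cKO15, 0.0896% without cHet14). Without cHet12 the fit called 2 of the 10, where 1.28% of all genes had a positive call and 13.4% a slope at an unadjusted p under 0.05.

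The mesenchyme score, the mean log2 CPM of 13 general mesenchyme markers, moved with Bmp2. It was 8.82, 8.33, 9.09 and 9.37 in cKO7, cKO9, cKO14 and cKO15, against 8.50, 6.86, 8.16 and 7.77 in cHet8, cHet11, cHet12 and cHet14, so cKO9 and cHet11 were lowest on both. With this score in place of Bmp2, only Bambi passed (slope 1.27 per log2 unit of the score, SE 0.21, adjusted p = 0.0448), where 0.93% of all genes had a positive call. A slope on Bmp2 and a slope on mesenchymal content cannot be told apart in these libraries.

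The change between genotypes could then be set beside the slope within them. Divided by the log2 change of Bmp2 itself (3.45), the change of Smad6 was 0.61 log2 units per doubling, beside 0.60 within genotypes. The pairs were 0.97 and 0.99 for Tmem100, 0.78 and 0.82 for Smad9, 0.67 and 0.78 for Atoh8, 0.45 and 0.48 for Id1, and 0.52 and 0.46 for Id2. Id3 had 0.55 between and 0.77 within genotypes, and Smad7 had 0.40 and 0.66. For Bambi the values were 0.05 between and 0.99 within genotypes. The slopes also changed with single libraries. Without cKO9 they were 0.30 for Id1, 0.27 for Id2, 0.55 for Smad6, 0.82 for Smad9 and 0.81 for Tmem100. Without cHet11 they were 0.64, 0.96, 0.73, 0.99 and 1.29 for the same genes. The values between genotypes were not recalculated for these fits. How many of all tested genes give pairs as close was not counted. The mesenchyme score ordered the libraries of each group as Bmp2 did, so close pairs are not read as a response to Bmp2. With log2 Bmp2 as a covariate, a fit chosen after seeing the data, the genotype term of Bambi was -3.37 (SE 0.55, unadjusted p = 0.000344), which did not pass over all genes (adjusted p = 0.216). For the other 9 that term lay between -0.88 and 0.36, with adjusted p from 0.716 to 0.995. In that fit 0 of 21507 genes were called higher and 1 lower. The SE of the Id1 term was 0.64, beside 0.29 without the covariate. Because the groups do not overlap in Bmp2, the genotype term extends each group's slope beyond its own libraries. The lack of calls is therefore not a result about these 9 genes.

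**Figure D3:**
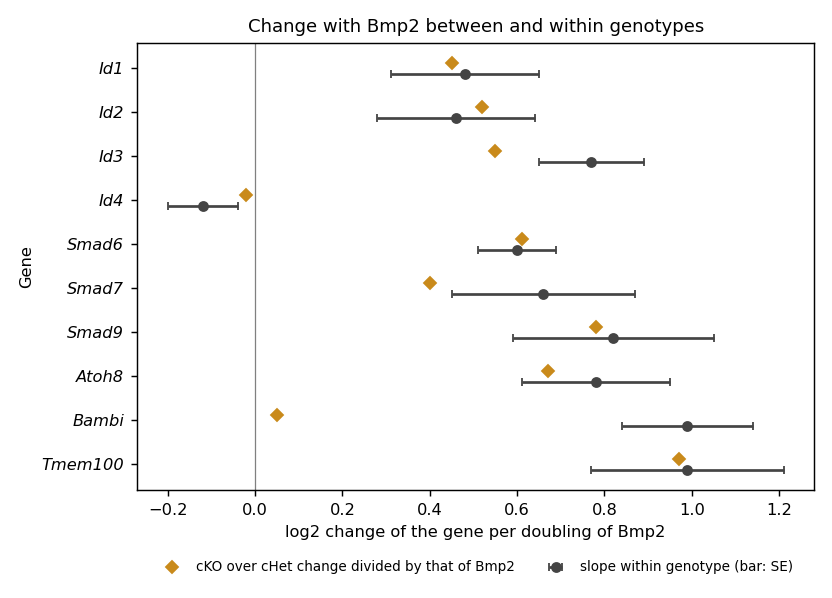
For each gene, the log2 change per doubling of Bmp2 among libraries of the same genotype (grey, with its SE) and the cKO over cHet change divided by that of Bmp2 (diamonds). The pair lies close together for Id1, Id2, Smad6, Smad9 and Tmem100, and for Bambi it is 0.99 against 0.05. With cKO9 or cHet11 left out, the slope was 0.30 or 0.64 for Id1 and 0.27 or 0.96 for Id2. The share of all tested genes with close pairs was not counted.

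The ratio of a gene's count to the Bmp2 count of the same library does not depend on how libraries are scaled. It is not per length, so only its difference between libraries is read. For Tmem100 the ratio was 40.2, 18.1, 21.1 and 31.4% in cKO, against 35.1, 38.4, 23.8 and 33.1% in cHet, which overlapped (exact permutation p = 0.343). For Smad6 it was 16.8, 17.0, 14.0 and 13.7% in cKO, against 36.8, 63.7, 30.7 and 41.9% in cHet. For Bambi it was 20.1, 12.3, 15.2 and 17.8% in cKO, against 170, 182, 139 and 196% in cHet. Except for Tmem100 all the genes had lower ratios in every cKO library than in any cHet library, each with an exact two-sided permutation p of 0.0286, the smallest that 70 assignments can give (0.0318 adjusted over the 10 genes). The same held for 86.9% of the other tested genes, since Bmp2, the denominator, was itself much higher in cKO, so the lower ratios are not a result about these 9 genes. On the log2 scale the differences ran from -0.85 for Smad9 to -3.65 for Id4.

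Among themselves the genes were compared by the root mean square difference of log2 CPM, each centred on its own mean, over the 8 libraries. Id1 and Id2 were each other's nearest member (0.21), and so were Id3 and Smad6 (0.24), while the members' own spread was 0.86 for Id1 and 1.15 for Smad6. Smad7 and Atoh8 lay nearest to Id3 (0.47 and 0.30), Smad9 to Smad6 (0.38) and Tmem100 to Smad9 (0.44). Bambi lay 0.73 from its nearest member, Id1, which is as far as its own spread (0.71).

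The same measure was taken against 12465 other genes averaging 5 CPM or more, where the profiles nearest to Smad6 were those of Dlk1 and Dpyd (0.12 each). Nearest to Id2 were Parm1 (0.15) and Galnt10 (0.19), to Atoh8 Foxd2 (0.20) and Pdgfrl (0.21), and to Tmem100 Olfml3 and Oaf (0.32 each). Smad9 lay nearest to Adamts20 (0.10) and H19 (0.19), over 12466 genes. Id1 lay nearest to Tmem98 and Galnt10 (0.11 each), and Id3 to Tmem121 (0.07) and B3gnt9 (0.09). In each case these genes lay nearer than any other of the 10 did. How many genes lie as near as the nearest member was not counted. The gene nearest to Bambi, looked up after its values were seen, was Bmp4 (0.14), which in Xenopus embryos is known to share its expression pattern. Bmp4 stood at 26.1, 7.21, 18.7 and 24.3 CPM in cKO, against 30.3, 7.28, 23.2 and 13.3 CPM in cHet, and its groups overlapped (log2 0.04, SE 0.51, adjusted p = 0.979).

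Over all tested genes 1.08% were called higher and 0.0558% lower. At an unadjusted p under 0.05, 10.8% were higher and 1361 of 21508 genes lower. Of 11 tested BMP and GDF ligands, 2 rose and none fell, with 4 higher and 0 lower at an unadjusted p under 0.05 (median log2 change 0.30). Beside Bmp2 (log2 3.45, SE 0.48, adjusted p = 0.0328) this was Bmp6, which stood at 162, 83.5, 138 and 147 CPM in cKO, against 49.6, 39.6, 54.7 and 47.7 CPM in cHet (log2 1.47, SE 0.21, adjusted p = 0.0336). The Bmp6 groups were apart. Of 11 receptors and co-receptors 2 rose (median 0.36, 5 higher at an unadjusted p under 0.05). Acvr1, the type I receptor ALK2, stood at 43.2, 40.5, 32.9 and 49.5 CPM in cKO, against 20.0, 14.5, 23.6 and 17.3 CPM in cHet (log2 1.14, SE 0.19, adjusted p = 0.0405). The rest of the list includes Neo1, a receptor of RGM co-receptors, which rose 3.92-fold in mean (adjusted p = 0.0254), and the main type I and type II receptor genes Bmpr1a (log2 0.42, SE 0.15, adjusted p = 0.215) and Bmpr2 (log2 0.19, SE 0.22, adjusted p = 0.723), which did not pass.

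None of the signal-carrying Smad genes Smad1, Smad4 and Smad5 was called by edgeR, with 1 higher at an unadjusted p under 0.05. Smad1 was at 111 to 143 CPM in cKO and 98.4 to 124 CPM in cHet (log2 0.18, SE 0.12), and Smad5 at 33.3 to 65.4 CPM in cKO and 17.6 to 32.3 CPM in cHet (log2 0.99, SE 0.27, adjusted p = 0.125). Of the 3 genes of BMP-activated Smads, Smad9 was called and Smad1 and Smad5 were not, and the difference between them was not tested. At an unadjusted p under 0.05, 7 of 12 tested secreted antagonists were higher (median 1.53), beside 10.8% of all tested genes. By the adjusted p 1 rose, beside 1.08% of all tested genes. This was Nog, whose product noggin sequesters BMPs, at 16.1, 17.9, 12.6 and 17.1 CPM in cKO, against 3.76, 1.52, 2.85 and 2.12 CPM in cHet (log2 2.64, SE 0.32, adjusted p = 0.0283).

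The next lists stand beside the same shares of all tested genes, 1.08% called higher and 10.8% higher at an unadjusted p under 0.05. Intracellular brakes other than the inhibitory Smads gave 0 calls among 9 genes by edgeR (5 higher at an unadjusted p under 0.05, median 0.41). The nuclear co-repressor gene Skil had a log2 value of 0.86 (SE 0.19, adjusted p = 0.0728). Among the bHLH proteins that Id proteins bind or oppose, 0 of 8 tested genes were called by edgeR (4 higher at an unadjusted p under 0.05, median 0.76). Twist2, a mesenchymal bHLH factor, had a log2 value of 2.03 (SE 0.46, adjusted p = 0.0814), and the E protein genes Tcf4 and Tcf12 had 0.08 and -0.02. Of 13 other genes known to respond to BMP, 1 rose (median 1.11, 7 higher at an unadjusted p under 0.05). This was the homeobox gene Dlx3, at 226, 126, 278 and 325 CPM in cKO, against 77.2, 32.8, 55.9 and 42.7 CPM in cHet (log2 2.19, SE 0.35, adjusted p = 0.0377). Msx1 (adjusted p = 0.0573) and Dlx2 (adjusted p = 0.0572) did not pass. Of 8 genes known to respond to TGF-beta, a list that includes Smad7, 0 were called by edgeR and 7 were higher at an unadjusted p under 0.05 (median 1.08), with Tgfbi at log2 2.4 (SE 0.49, adjusted p = 0.0610).

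**Figure D4:**
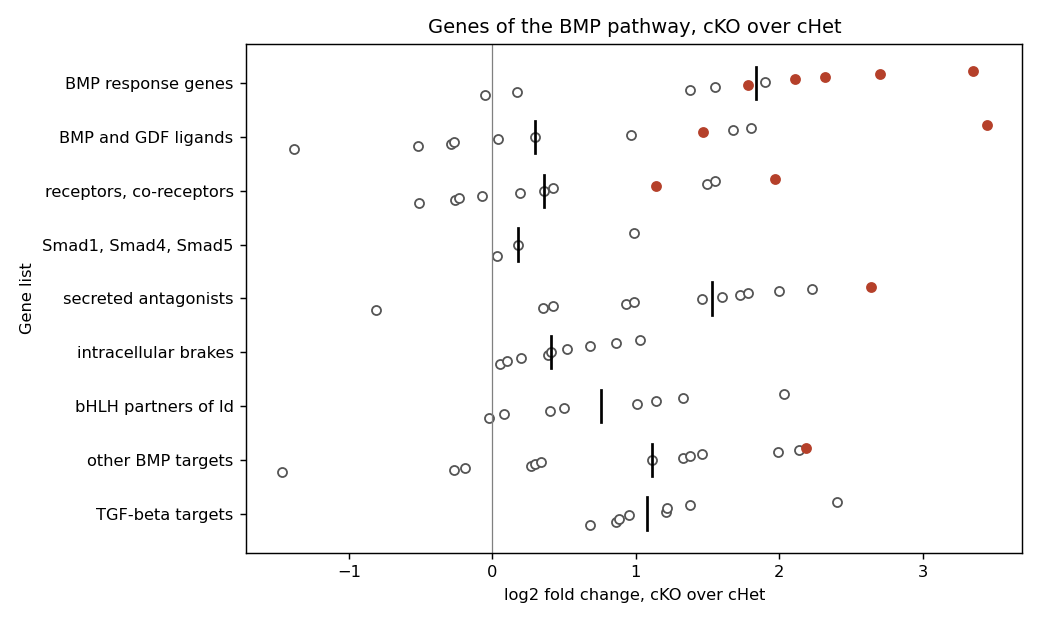
log2 fold change of cKO over cHet (x) for every tested gene of the 10 BMP response genes and of 8 other lists of the pathway (rows); filled points were called higher by edgeR, open points were not called, and the black bar is the list's median. The medians are 1.84 for the BMP response genes, 1.53 for secreted antagonists and 0.30 for ligands. Skil, Pmepa1, Hey1 and Smad7 are each in more than 1 list.

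Within their groups, cKO9 and cHet11 had the lowest sums of mesenchyme, papilla, odontoblast, endothelial and pericyte markers. The olfactory, Schwann cell, epithelium and mitosis sums were lowest in other libraries, and the macrophage sum in cKO9 and cHet14. The 13 general mesenchyme markers, all detected, summed to 13890 to 27500 CPM in cKO and 3852 to 12390 CPM in cHet, where Prrx1 alone was called (log2 1.8, adjusted p = 0.0455). Col3a1 (mean 7603 CPM in cKO and 2930 CPM in cHet), Col1a1 (5558 and 2386 CPM) and Col1a2 (3412 and 1701 CPM) made up most of that sum, and their groups overlapped. At an unadjusted p under 0.05, 9 of the 13 were higher and 1 lower, where 10.8% of tested genes were higher and 1361 of 21508 lower. Looked up after their values were seen, Dcn had a log2 value of -1.04 (adjusted p = 0.257) and Lum of -0.66 (adjusted p = 0.545), so the list did not move as 1 block. The 10 olfactory neuron markers, all detected, summed to 6042 to 7572 CPM in cKO and 6977 to 12480 CPM in cHet, and the 9 markers of olfactory supporting cells and glands to 545 to 1634 CPM and 1403 to 2373 CPM, with Obp1a and Obp2a at 0 in some libraries. The 8 macrophage markers summed to 63.3 to 188 CPM in cKO and 115 to 804 CPM in cHet, and the 10 mitosis genes to 91.2 to 143 CPM and 171 to 296 CPM. Of the mitosis genes 1 was called lower by edgeR, beside 0.0558% of all tested genes. In 5 of the 10 every cKO library lay below every cHet library, as in 3.68% of tested genes. Pericyte and smooth muscle markers (9 genes, 233 to 452 CPM in cKO and 132 to 357 CPM in cHet), Schwann cell markers (8 genes, 198 to 461 CPM and 161 to 569 CPM) and dental epithelium markers (8 genes, 468 to 666 CPM and 548 to 742 CPM) overlapped between groups, with Shh at 0 in 1 library. So did 6 odontoblast markers (107 to 251 CPM in cKO and 117 to 367 CPM in cHet), with Phex at 0 in 1 library. The 9 papilla markers summed to 2806 to 5359 CPM in cKO and 511 to 1297 CPM in cHet, with Cxcl12, Smoc2 and Igfbp5 called higher. Dlx2, Dlx5 and Msx1 are in this list and also among the other genes known to respond to BMP. Likewise, the mesenchyme markers Twist1 and Col1a1 are in the bHLH list and the TGF-beta list, so these lists are not separate observations. Tac1, also looked up after its values were seen, lay lower in every cKO library (log2 -1.65, adjusted p = 0.108).

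With libraries scaled to the mesenchyme markers, the median of all tested genes was -1.35 and the 10 genes had a median of 0.59. Tmem100 then had a log2 value of 2.22 (adjusted p = 0.0598), Smad9 1.59 (0.0609), Atoh8 1.20 (0.0617), Smad6 0.94 (0.0705) and Id4 -1.41 (0.0610), and none was called by edgeR, with 4 higher and 2 lower (Id4 and Bambi) at an unadjusted p under 0.05. In that fit 0.0093% of all genes were called higher, and at the unadjusted p 0.842% were higher and 51.7% lower. With the mesenchyme score as a covariate 0 of the 10 were called by edgeR and 7 were higher and 1, Bambi, lower at an unadjusted p under 0.05, where 0.0511% of all genes were called higher and, at the unadjusted p, 3.6% were higher and 3.73% lower. With the olfactory neuron score 0 were called by edgeR and 7 were higher at that unadjusted p, where 0.00465% of all genes were called higher and 4.0% were higher at that unadjusted p. The part of the mesenchymal and olfactory content in the changes was not tested beyond these fits.

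**Figure D5:**
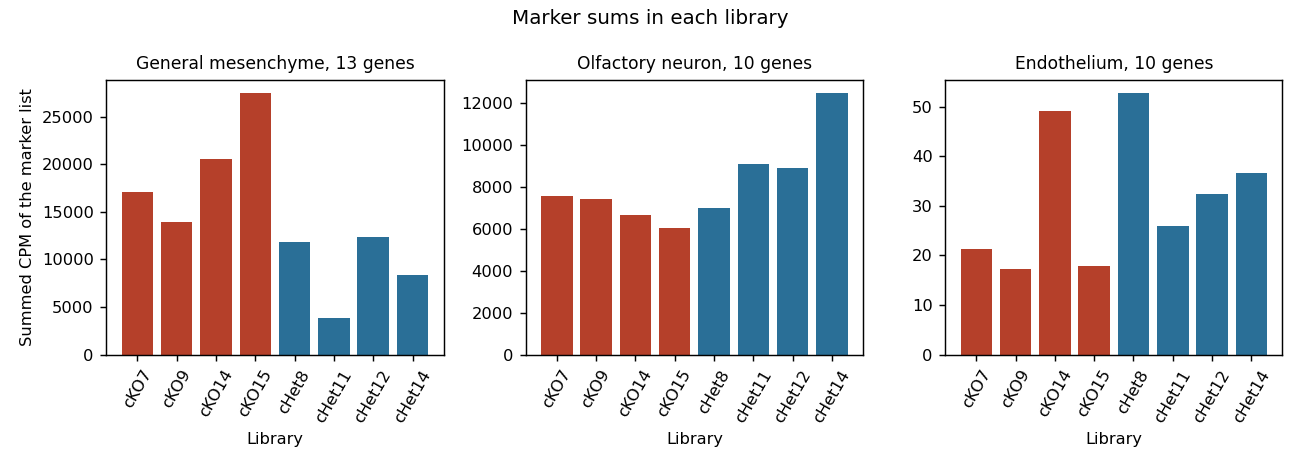
Summed CPM of 3 marker lists (y, from 0) in each cKO (red) and cHet (blue) library. Mesenchyme markers summed to at least 13890 CPM in every cKO library and at most 12390 CPM in any cHet library, olfactory neuron markers were highest in cHet14 (12480 CPM), and endothelial markers stayed at or below 52.8 CPM.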

How the data were processed

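Transcripts were counted in 8 libraries, 4 cKO and 4 cHet. The deposited table holds whole-number read counts per Ensembl gene that the authors left unnormalized. Trim Galore, STAR and the builds GRCm39 and mm39 are named in the submitters' processing notes; for the counter, the annotation and all versions nothing is given in the sources used here. Per the labels' protocols cDNA came from a SMART-Seq v4 kit, which does not mark strand, and no molecular identifiers are mentioned. Count columns carry group names and numbers that match no sample title, so each was assigned to its group only.

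Identifiers were matched without version to a symbol table (52073 of 56748 matched), with the largest identifier per symbol kept. R 4.3.3 and edgeR 4.0.16 were used: TMM factors, default expression filter, quasi-likelihood F test with genotype as sole term, Benjamini-Hochberg adjustment over 21508 genes, two-sided. SE is the log2 change divided by the square root of F, an approximation. The common biological coefficient of variation was 0.553. DESeq2 1.42.0 and limma 3.58.1 (voom with quality weights) were alternatives. Lengths are unions of GENCODE M21 exons (GRCm38). Ratios used a prior count of 2, log2 CPM likewise. Slopes came from an edgeR fit with genotype and centred log2 Bmp2 CPM. The fits were also run on simulated counts with known changes. Their noise was drawn independently for each gene, so these runs cannot check how far the calls depend on single libraries. Motifs were searched on both strands of RefSeq promoter windows.

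The members and lists were chosen with earlier results of these data known. Named genes were the 10 members, Bmp2, Ctnnb1 and Cxcl12, the called genes and up to 3 with the smallest p of each pathway list. Marker genes at 0 or most abundant and the 2 nearest profiles of each called member and of Id1 and Id3 were also named. Bambi's nearest gene, Bmpr1a, Bmpr2, Acvrl1, Eng, Tcf4, Tcf12, Smad1 and Cdh5 were added by role.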

Additional observations from a re-analysis of the deposited data

How the results depend on the processing

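Each of the 10 genes was refitted under 21 other settings. Id2 had positive log2 values in all of them, and Id1, Id3, Smad6, Smad7, Smad9, Atoh8 and Tmem100 in all except with log2 Bmp2 as a covariate. The count of members called higher, 5, was 8 by DESeq2 and by limma voom, 3 with DESeq2-type size factors, and 0 with mesenchyme scaling or with the mesenchyme score, the olfactory score or log2 Bmp2 as covariate. It ranged from 0 to 7 when 1 library was left out, and was 7 without both cHet11 and cKO9, an alternative chosen after seeing the data, as was the Bmp2 covariate. The cause of these differences was not tested. The count of all genes called, 244, was 1951 by DESeq2, 1552 by limma voom, 766 at a threshold of 0.10, 641 without both cHet11 and cKO9, 15 with the mesenchyme score, 3 with mesenchyme scaling, and 1 with the olfactory score and also with Bmp2 as covariate. It ranged from 0 to 960 when 1 library was left out. The count of slopes on Bmp2 within genotypes, 3, was 1 with the mesenchyme score in place of Bmp2, chosen after seeing the data, and 0 to 2 when 1 library was left out.

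Values that turned sign with log2 Bmp2 as a covariate were -0.21 for Id1, -0.87 for Id3, 0.36 for Id4, -0.01 for Smad6, -0.88 for Smad7, -0.13 for Smad9, -0.46 for Atoh8, -3.37 for Bambi and -0.19 for Tmem100. These values come from groups that do not overlap in Bmp2. Id4 turned to 0.10 with the mesenchyme score and 0.11 with the olfactory score. Bambi turned to -0.95 with mesenchyme scaling, -1.14 with the mesenchyme score and -0.58 with the olfactory score, and ranged from -0.10 to 0.46 when 1 library was left out. A prior count of 0.5 in place of 2 changed no call of the ratios to Bmp2. No paired analysis was possible because the count columns do not carry the replicate numbers of the sample titles.

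With 4 libraries a group, adjusted p-values lay just on either side of the threshold (0.0337 to 0.0579 for 7 members), so calls of single members are less firm than their directions. Depth limits Smad9 most, with 30 reads in its lowest library.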
